A study of Arabidopsis lyrata subsp. lyrata with 8 samples.

Results

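Aquaporins, the channel proteins that carry water and small neutral solutes across plant membranes, were compared, as transcripts, between the root and the flower bud of Arabidopsis lyrata ssp. lyrata, a relative of A. thaliana. The family was taken as 35 locus codes of A. thaliana, 13 for plasma membrane intrinsic proteins (PIP), 10 for tonoplast intrinsic proteins (TIP), 9 for NOD26-like intrinsic proteins (NIP) and 3 for small basic intrinsic proteins (SIP). A gene model on the array belonged to it when its name held one of these codes. This found 22 of 32386 gene models, which stand for 21 of the codes, since TIP2-3 (AT5G47450) had 2 models. By subfamily the models covered 10 PIP, 6 TIP, 4 NIP and 1 SIP code. The codes that no model name held are PIP1-4, PIP2-3, PIP2-4, TIP1-3, TIP3-2, TIP4-1, TIP5-1, NIP2-1, NIP3-1, NIP4-1, NIP4-2, NIP5-1, SIP1-2 and SIP2-1, and they were not analysed here. The pollen isoforms TIP1-3 (AT4G01470) and TIP5-1 (AT3G47440) are among them.

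Plants of both groups were 6 weeks old and raised in hydroponic culture. Stratification is given for every sample, with the same number of days in both groups, and no other treatment is named. The labels give the seed as A. lyrata ssp. lyrata, col 0, and name no other genotype. The groups were roots (4 replicates) and flower buds (4 replicates), each replicate being tissue pooled from 8 to 10 plants. RNA of each was labelled with 1 dye and hybridised to 1 array of a single custom Agilent slide. Genes are named by the A. thaliana code in the model's name and its symbol, written with a hyphen, and the roles given are those known from A. thaliana.

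In each subfamily the channels sit in a typical membrane. PIPs lie in the plasma membrane, where they set much of a root's conductance for water, and PIP1 proteins often need a PIP2 partner to reach that membrane. TIPs lie in the membrane of the vacuole and pass water, and some of them also ammonia or hydrogen peroxide. NIPs carry boric acid, arsenite and other small solutes, and SIPs lie in the endoplasmic reticulum.

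Root arrays had a 75th percentile signal of 2541 to 4499 and flower bud arrays one of 4716 to 5054, no spot was saturated, and the small number of arrays limits the precision. For each pair of arrays of a tissue, the variance between arrays was set against that expected from the scatter of repeated spots. The ratio was 0.787 for flower bud arrays 1 and 2 and 0.902 for flower bud arrays 3 and 4, less than sampling noise, and 4.76 to 19.4 for all other pairs. Flower bud arrays 1 and 2 were therefore averaged and counted once, as sample A, and arrays 3 and 4 as sample B. This left 4 samples of root against 2 of flower bud. The p-values reflect the spread among these samples only, with variances that limma moderates over all models tested. Each tissue occupied its own row of the slide, so row and tissue cannot be told apart. Of markers listed for each tissue, all 5 measured root markers were called higher in root, and all 4 measured flower organ markers, all 4 of tapetum, all 4 of pollen and all 4 of green tissue were called higher in flower bud. The largest differences among them were those of CASP2 and CASP1 for root, AP1 and AP3 for flower organs, GRP19 and AMS for tapetum, VGD1 and AGP11 for pollen, and RBCS1B and RBCS3B for green tissue. CASP2, of the Casparian strip, was well above background on no flower bud array, and AP1, of the flower meristem, on no root array. BRN1 and WER were like CASP2 in this, and AMS, GRP19, MS1 and VEX1 like AP1. Other markers did give such signal in the opposite tissue. PI, SEP3, AP3, A9, AGP6, RCA and RBCS3B gave it in root, on 4 of 4 arrays, and CASP1 in flower bud, on 4 of 4. In root, AGP11 and VGD1 gave it on 1 array each and RBCS1A and RBCS1B on 2 each. COBL9, a root hair gene chosen for mention after its values were seen, was well above background on all 4 flower bud arrays, at a level of -1.21 in sample A and -1.30 in sample B.

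Aquaporin transcripts were mostly higher in root. Levels are log2 signal relative to the 75th percentile of the array. Each probe has its own response, so that a level can be compared between samples but not between genes. Differences are log2 values, root minus flower bud (n = 4 for root and n = 2 for flower bud). They are given ± limma's standard error, which borrows variance from all models tested. A model was called when limma's adjusted p was under 0.05 and the difference at least 2-fold. Of the 22 models 21 could be tested, and all 21 were well above background on all 8 arrays, so none entered the test through 1 tissue alone. Over all 26420 models tested, 51.4% were called in either direction, and 15 of 21 aquaporins were. Called higher in root were 13 of 21 (61.9%), against 23.7% of all models and 22.6% of the 21733 that were well above background on all arrays. Called higher in flower bud were 2 of 21 (9.52%), against 27.7% of all models and 20.2% of those well above background on all arrays. The median difference was 1.79 over the aquaporins and -0.03 over all models tested. In 15 models all 4 root samples lay above both flower bud samples (39.4% of all models did), in 3 both flower bud samples lay above all root samples (41.3% of all models), and in 3 the tissues overlapped. In bulk tissue, fewer cells of a type and less RNA per cell cannot be told apart.

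**Figure D1:**
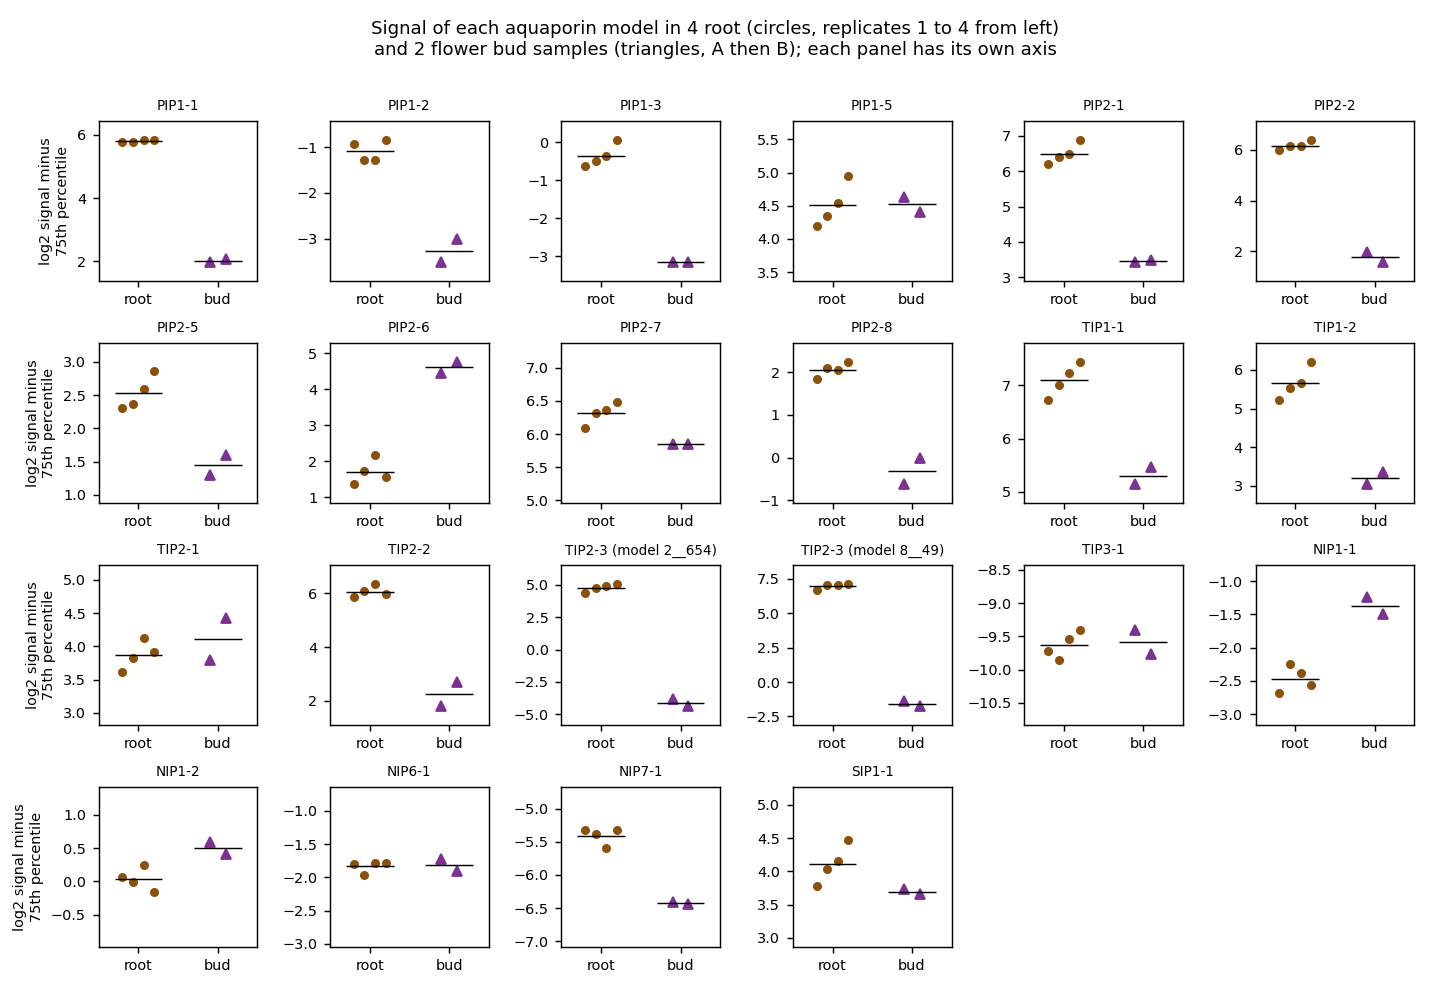
Each panel plots 1 aquaporin model, with its level (log2 signal relative to the 75th percentile) on its own vertical axis; circles are root replicates 1 to 4, triangles are flower bud samples A and B, and lines are means. The widest gaps are those of the 2 TIP2-3 models, PIP2-6 and NIP1-1 lie higher in flower bud, and TIP3-1 lies at background in both tissues.

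The calls of PIP2-5, NIP1-1, NIP1-2 and NIP7-1 depended on how arrays were set against each other. With arrays scaled on the spike-in RNAs, the median of all models moved to -0.71 and every aquaporin difference moved down with it. Root then held 27.3% of all calls in place of 46.1%. Under that scaling 11 aquaporins were called for root and 3 for flower bud. Of the 15 called aquaporins, 12 kept their call under all 17 alternatives, and PIP2-5, NIP1-1 and NIP7-1 did not. Some of the alternatives left the differences unchanged.

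**Figure D2:**
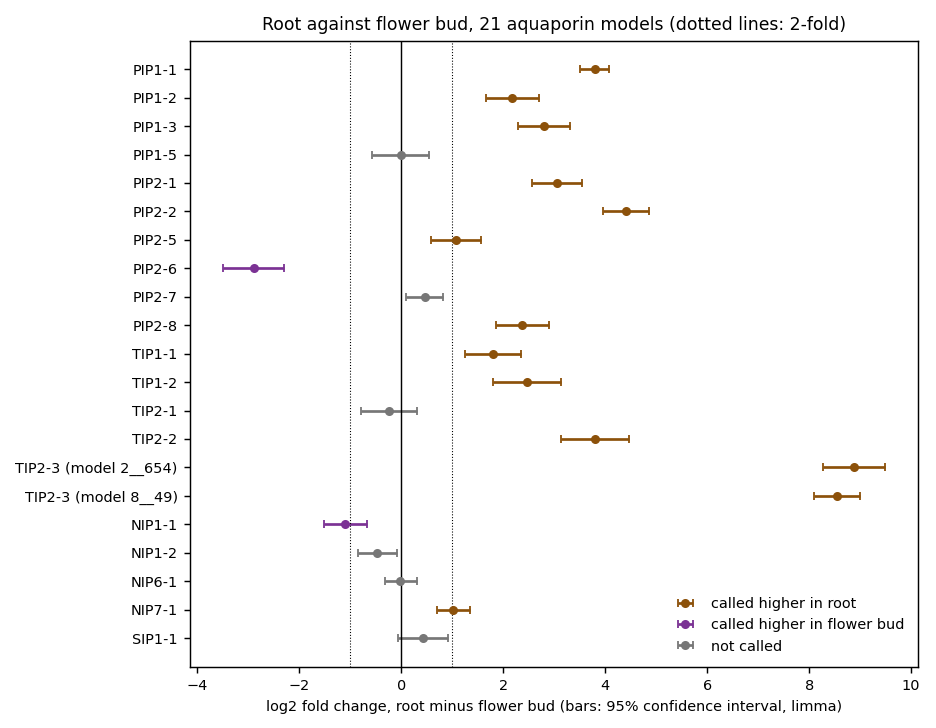
Points are log2 differences, root minus flower bud, for the 21 tested aquaporin models, bars are 95% confidence intervals from limma, and dotted lines mark 2-fold. Brown points (13) are called higher in root, purple points (2) in flower bud, and the intervals of both TIP2-3 models, from 8.10 to 9.48, lie far above those of the others.

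Among PIPs, root was called higher for 7 of 10 and flower bud for 1, and the median difference was 2.28. PIP1-5 overlapped between tissues and PIP2-7 stayed under 2-fold.

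Of the 4 measured PIP1 genes, 3 were called higher in root. PIP1-1 (AT3G61430) was at 5.78, 5.77, 5.84 and 5.83 in root replicates 1 to 4 and at 1.97 and 2.07 in flower bud samples A and B. The root replicates were nearly level, with an SD of 0.03, and far above the buds. The difference was 3.79 ± 0.12 (13.8-fold, adjusted p = 5.19e-07). PIP1-3 (AT1G01620) was at -0.63, -0.49, -0.36 and 0.07 in root and at -3.16 and -3.15 in flower bud, a difference of 2.80 ± 0.21 (6.96-fold, adjusted p = 3.27e-05). Root replicate 4 was the highest of the root samples for PIP1-3, and both flower bud samples lay well below all of them. PIP1-2 (AT2G45960), which contributes to the water conductance of root and rosette, was at -0.94, -1.28, -1.29 and -0.84 in root and at -3.52 and -3.01 in flower bud, a difference of 2.18 ± 0.22 (4.53-fold, adjusted p = 0.000127). PIP1-5 (AT4G23400) was at 4.19, 4.34, 4.54 and 4.95 in root and at 4.63 and 4.41 in flower bud. Its groups overlapped, since both flower bud samples fell within the range of the roots. The difference was -0.01 ± 0.23 (adjusted p = 0.964), with a 95% interval of -0.57 to 0.54 that excludes a 2-fold difference either way in this scaling.

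PIP2 genes, which encode the more active water channels of the plasma membrane, differed in both directions. Of 6 measured, root was called higher for 4 and flower bud for 1. PIP2-2 (AT2G37170) was at 5.98, 6.16, 6.15 and 6.40 in root and at 1.99 and 1.56 in flower bud. All root samples lay far above both flower bud samples, and at 4.40 ± 0.19 (21.1-fold, adjusted p = 1.93e-06) it was 1 of 3 aquaporin models called at 16-fold or more. Among all models tested, 6.37% were called higher in root by that much. Whether the PIP2-2 probe also binds transcripts of PIP2-3, a code that no model name held, was not tested. PIP2-1 (AT3G53420), a major water channel of roots that is also used in lateral root emergence, was at 6.21, 6.39, 6.50 and 6.89 in root and at 3.42 and 3.48 in flower bud, a difference of 3.05 ± 0.21 (8.28-fold, adjusted p = 1.83e-05). PIP2-8 (AT2G16850) was at 1.84, 2.10, 2.06 and 2.25 in root and at -0.63 and 0.00 in flower bud, a difference of 2.37 ± 0.21 (5.17-fold, adjusted p = 8.12e-05). For both genes all root samples lay above both flower bud samples, and in PIP2-8 sample A was below sample B.

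PIP2-6 (AT2G39010), a water channel mostly of shoots in A. thaliana, ran the other way. It was at 1.35, 1.73, 2.16 and 1.56 in root and at 4.44 and 4.76 in flower bud. Both flower bud samples lay above all root samples, with a difference of -2.90 ± 0.25 (7.48-fold higher in flower bud, adjusted p = 5.73e-05), and over all alternatives it lay between -3.58 and -2.62. PIP2-5 (AT3G54820) was at 2.30, 2.37, 2.59 and 2.86 in root and at 1.30 and 1.60 in flower bud, a difference of 1.08 ± 0.20 (adjusted p = 0.00283) that only just reached 2-fold. It fell below 2-fold without root replicate 4 (0.97), without sample A (0.93) and with normexp and quantiles (0.89), and lost its call under spike-in scaling (0.40, adjusted p = 0.391). PIP2-7 (AT4G35100) was at 6.09, 6.32, 6.36 and 6.48 in root and at 5.85 and 5.85 in flower bud, a difference of 0.46 ± 0.15 (adjusted p = 0.0309). The root samples lay above the buds by less than 2-fold, and under spike-in scaling the sign turned (-0.22, adjusted p = 0.652).

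TIPs held the largest differences of the family, and 5 of 6 tested models were called higher in root, with a median of 3.13. TIP2-3 (AT5G47450), an ammonia- and water-permeable channel of the root vacuole, led them in both of its models. Model fgenesh2_kg.2__654 was at 4.36, 4.71, 4.92 and 5.07 in root and at -3.83 and -4.38 in flower bud, a difference of 8.87 ± 0.25 (469-fold, adjusted p = 3.47e-07). Model fgenesh2_kg.8__49 was at 6.70, 7.02, 7.04 and 7.14 in root and at -1.37 and -1.77 in flower bud, a difference of 8.55 ± 0.19 (374-fold, adjusted p = 1.26e-07). The 95% intervals of the models overlapped and together ran from 8.10 to 9.48, and both models were lower in sample B than in sample A. Both were well above background on all flower bud arrays, so their folds are measured ones and not bounds. Each model has its own probe; whether a probe also binds transcripts of the other model or of another TIP2 gene was not tested.

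TIP2-2 (AT4G17340), its close relative, was at 5.86, 6.08, 6.35 and 5.95 in root and at 1.80 and 2.71 in flower bud, a difference of 3.80 ± 0.28 (14.0-fold, adjusted p = 2.73e-05). The gap of 0.91 between samples A and B was the widest among the tested aquaporins, but it was small beside the gap to root. TIP2-1 (AT3G16240), the member of this group best known from shoot vascular tissue, was at 3.61, 3.83, 4.12 and 3.91 in root and at 3.79 and 4.43 in flower bud. The tissues overlapped and the difference of -0.24 ± 0.23 did not pass (adjusted p = 0.371, 95% interval -0.79 to 0.31). TIP1-2 (AT3G26520) was at 5.22, 5.54, 5.65 and 6.21 in root and at 3.04 and 3.35 in flower bud, a difference of 2.46 ± 0.28 (5.49-fold, adjusted p = 0.000253). TIP1-1 (AT2G36830), the widely expressed vacuolar water channel, was at 6.72, 7.00, 7.22 and 7.44 in root and at 5.14 and 5.47 in flower bud, a difference of 1.79 ± 0.23 (3.46-fold, adjusted p = 0.000456). For both TIP1 genes every root sample lay above both flower bud samples.

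TIP3-1 (AT1G73190), a channel of seed storage vacuoles, was the 1 model that could not be tested. Only 1 flower bud array and no root array showed it well above background, with levels of -9.86 to -9.40 in root and of -9.41 and -9.77 in flower bud samples A and B, and no fold is given. Of 4 seed maturation markers on the array, 1 could be tested: OLEO2, an oil body protein gene, was well above background on all 4 flower bud arrays and no root array and was called higher in flower bud (at least 6.64-fold, the mean bud level over the higher, per array, of its own root signal and the lowest signal well above background; adjusted p = 9.11e-05). OLEO1 was well above background on 2 root arrays and 1 flower bud array, and the storage protein genes CRU1 and CRU3 on none.

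NIPs showed small differences in both directions, with a median of -0.24 and a range of -1.10 to 1.02. NIP1-1 (AT4G19030), known as an arsenite-permeable channel of roots, was at -2.68, -2.25, -2.38 and -2.56 in root and at -1.24 and -1.50 in flower bud. Both flower bud samples lay above all root samples, with a difference of -1.10 ± 0.17 (2.14-fold higher in flower bud, adjusted p = 0.00125). A second probe of the same model, printed as 10 spots on each array, gave -1.07 (means over all arrays of each tissue). The call was lost below 2-fold with arrays set to their medians (-0.82), with normexp and quantiles (-0.88) and without sample A (-0.97). NIP1-2 (AT4G18910), reported to carry aluminium malate, was at 0.07, -0.01, 0.24 and -0.16 in root and at 0.59 and 0.41 in flower bud. It too lay higher in both flower bud samples, but by less than 2-fold (-0.47 ± 0.16, adjusted p = 0.0342), and reached the call only under spike-in scaling (-1.14, adjusted p = 0.0345) or with no fold minimum.

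NIP6-1 (AT1G80760), a boric acid channel of shoot nodes, was at -1.80, -1.96, -1.79 and -1.79 in root and at -1.73 and -1.90 in flower bud. The tissues overlapped, with a difference of -0.02 ± 0.13 (adjusted p = 0.914) and a 95% interval of -0.33 to 0.30, the narrowest of the uncalled aquaporins in this scaling. NIP7-1 (AT3G06100), a boric acid channel of the anther and its tapetum in A. thaliana, was higher in root. It was at -5.32, -5.39, -5.60 and -5.32 in root and at -6.41 and -6.44 in flower bud, a difference of 1.02 ± 0.14 (2.03-fold, adjusted p = 0.000599). The roots lay above both flower bud samples, although sample B is the mean of arrays 3 and 4, which were at -6.94 and -5.94. The tapetum markers AMS, GRP19, MS1 and A9 were all called higher in flower bud, which is the opposite direction to NIP7-1. The call rested on a margin: NIP7-1 was at 0.99 without root replicate 1 or without root replicate 4, at 0.69 with normexp and the 75th percentile, at 0.83 with normexp and quantiles, and at 0.34 (adjusted p = 0.510) under spike-in scaling.

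SIP1-1 (AT3G04090), a water channel of the endoplasmic reticulum, was at 3.78, 4.04, 4.16 and 4.47 in root and at 3.73 and 3.66 in flower bud. All root samples lay above both flower bud samples, but the difference of 0.42 ± 0.21 did not pass (adjusted p = 0.106, 95% interval -0.07 to 0.91), and its sign turned under spike-in scaling (-0.26).

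**Figure D3:**
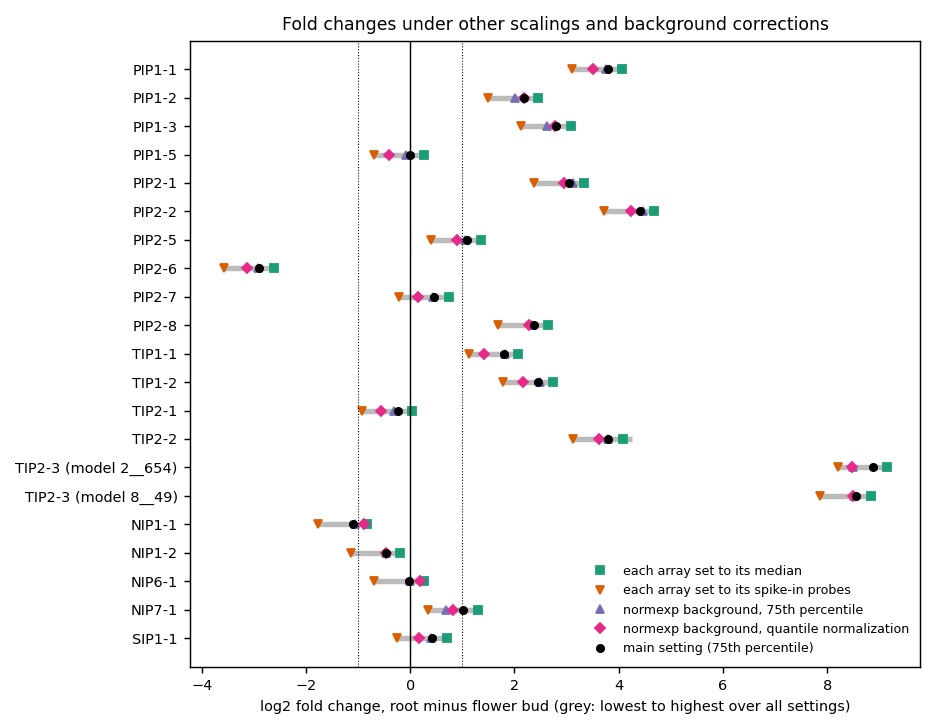
Black points are log2 differences, root minus flower bud, in the reported scaling on the 75th percentile; coloured symbols show other scalings and background corrections, and grey bars run from the lowest to the highest value over all 17 alternatives and the reported setting. Spike-in scaling gives the lowest value for each of the 21 models, and PIP1-5, PIP2-7, TIP2-1, NIP6-1 and SIP1-1 lie on both sides of 0.

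Among root samples the aquaporins varied about as much as other models. The median SD over root samples was 0.22 for the aquaporins and 0.23 for all models tested. Root replicates 1 and 4 differed the same way in many members. Root replicate 1 was the lowest of the 4 in 16 of 21 models (27.7% of all models), and root replicate 4 was the highest in 13 of 21 (39.4% of all models). All 11 aquaporins with a mean root level over 4 were higher in root replicate 4 than in root replicate 1, by 0.04 to 0.99, as were 71.5% of the 529 models at such levels. That share rose with level, from 69.4% of 487 models at 4 to 6 to 95.2% of 42 models over 6. PIP2-1, PIP2-2, PIP2-7, TIP1-1, TIP2-2 and 1 TIP2-3 model had mean root levels over 6, so this order was common to bright models. Root replicate 1 had the highest 75th percentile of signal among root arrays (4499) and root replicate 4 the lowest (2541). Root replicate 4 also stood apart in the median level of 5 genes induced by low oxygen, at -1.89 against 1.70, 1.19 and 1.71 in the other root samples. Of these genes 3, led by SUS4 and PCO1, were called higher in root (60%, against 23.7% of all models). SUS4 was at -7.62 and -8.25 in flower bud samples A and B. Just 2 of 4 flower bud arrays showed it clearly over background, so the size of its difference is less certain. LBD41, HRA1, PCO1 and PDC1 were clearly lower in root replicate 4, but SUS4, at -4.68 there, lay close to the other roots (-4.28, -4.47 and -4.54). Green tissue markers had a median level of -4.58 in root replicate 4 against -7.20, -6.42 and -6.82. RBCS1B, RBCS3B and RCA were highest there, but RBCS1A was at -7.71 against -7.76, -6.98 and -6.99. RBCS1A and RBCS1B were well above background on only 2 of 4 root arrays. The part of these genes and markers in the order of the aquaporins was not tested. Leaving out root replicate 4 removed 2 calls, PIP2-5 and NIP7-1, and left 11 aquaporins higher in root.

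Flower bud samples A and B differed by less than 2-fold for all 21 aquaporins. Of all models only 5.11% differed by at least that much, so finding none among 21 is close to that share. Sample B was above sample A in 11 models and below it in 9, and PIP2-7 was level. TIP2-2, TIP2-1 and PIP2-8 were higher in sample B by 0.91, 0.64 and 0.63, and the TIP2-3 models were lower in it, at -0.55 and -0.40 (B minus A). The tapetum markers had a median level of 0.38 in sample A and 2.22 in sample B, and the pollen markers one of 5.09 and 5.14. Their part in the aquaporin differences was not tested, and 2 samples give no test between A and B.

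**Figure D4:**
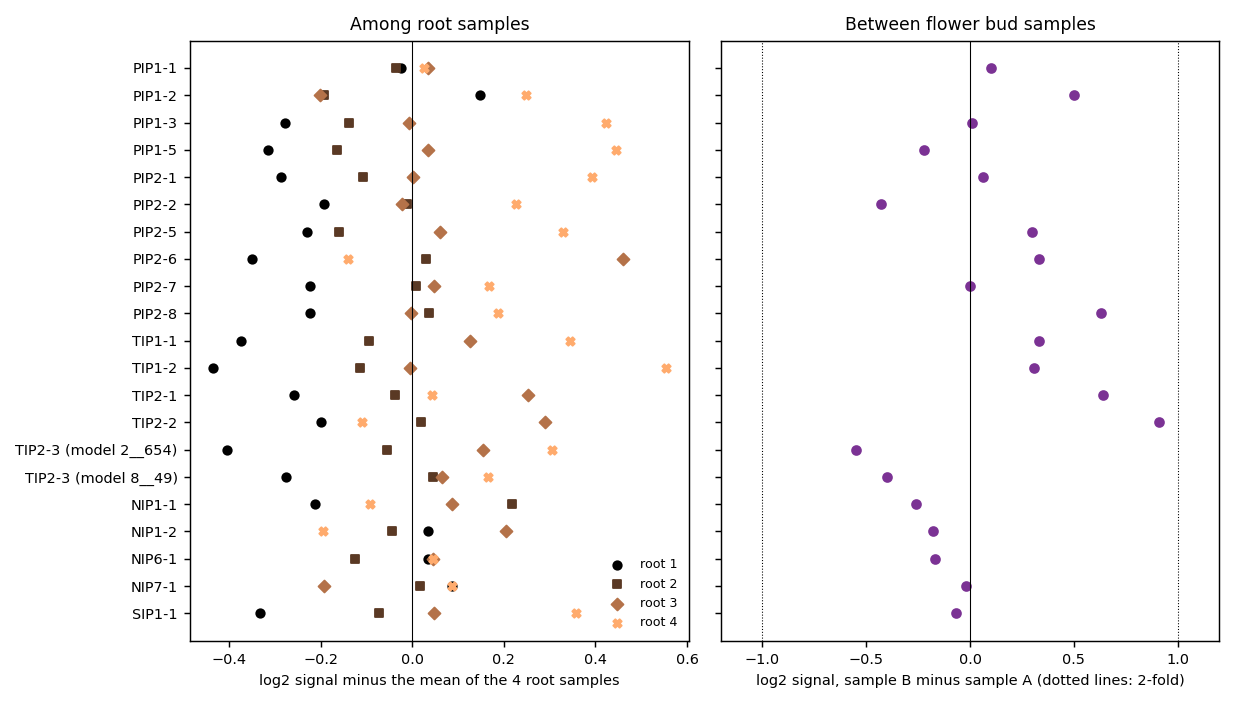
The left panel plots the log2 signal of each root sample minus the mean of the 4 root samples, and the right panel the log2 signal of flower bud sample B minus sample A, for the 21 tested aquaporin models; dotted lines mark 2-fold. Root replicate 4 lies to the right for most PIP and TIP models, and no aquaporin reaches 2-fold between the flower bud samples.

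Genes that act with aquaporins were measured beside them. Water flow through TIPs follows solutes that the proton pumps of the vacuole help to load, and 3 of 8 measured subunits of these pumps were called higher in root (37.5%, against 23.7% of all models), with a median of 0.90 against -0.03 over all models. VHA-a3 (AT4G39080), a membrane subunit of the vacuolar pump, was at 1.73 ± 0.14 (adjusted p = 4.30e-05) and VHA-B2 (AT4G38510) at 1.24 ± 0.13 (adjusted p = 0.000154). The other 5 subunits stayed under 2-fold, from 0.28 for VHA-B3 to 0.99 for VHA-A. At the plasma membrane, AHA1 (AT2G18960), the 1 measured proton pump of the family of 11, was at 1.83 ± 0.19 (adjusted p = 0.000177).

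Proteins that traffic, modify or degrade aquaporins were also measured. Of 7 such genes, 1 was called (14.3%, against 51.4% of all models in either direction). TSPO (AT2G47770), which binds PIP2-7 and leads it to degradation in stressed cells, was at -1.20 ± 0.17 (adjusted p = 0.000849) and so called higher in flower bud, and the other 6 stayed under 2-fold. The syntaxin SYP61, which acts in the delivery of PIP2-7 to the plasma membrane, was at 0.03 ± 0.12 (adjusted p = 0.836). The receptor kinase SIRK1, which phosphorylates aquaporins, was at 0.73 ± 0.15 (adjusted p = 0.00396). BOR1 and BOR2, borate exporters that work with the boric acid channels among the NIPs, were at 0.93 ± 0.13 (adjusted p = 0.000644) and 0.95 ± 0.16 (adjusted p = 0.00157), and BOR3 was at -0.41 ± 0.19 (adjusted p = 0.0887). All 3 borate exporters were under 2-fold. For the pumps, regulators and exporters, calls are given in the reported scaling only. The median of all models moved to 0.25 with arrays set to their medians and to -0.71 under spike-in scaling. Calls near 2-fold may therefore depend on the scaling.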

How the data were processed

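Agilent Feature Extraction 10.10.1.1 made the deposited intensity values, per the file headers: a processed signal per spot, corrected for background and spatial trend, with no scaling across arrays. Raw median intensities of spots and of their surroundings, and the software's marks for outliers, saturation and spots well above background, were used too. The value table that the authors deposited is in log2 values, and how it was made is not stated in the labels. Its columns followed the scanner values scaled on the 75th percentile and centred per probe (r of 0.9999 on each array, same sign), with medians of -0.05 to 0.08. Scale, centring and direction rest on that match.

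Outlier spots were left out, the log2 signals of a probe's spots were averaged, and each array was scaled by subtracting the 75th percentile of its non-control probes; 15 probes with no usable spot on some array were dropped. The mark for well above background was given to a probe with 0.5 or more of its spots so marked. Models with several probes took the probe with the higher mean. Tested were the 26420 models with that mark on every array of root, of flower bud, or of both. The tissue contrast was fitted in R 4.3.3 with lmFit and eBayes of limma 3.58.1 (two-sided), and p-values were adjusted by Benjamini-Hochberg over all models tested. Figures were drawn with matplotlib 3.10.9. The fit was tested on simulated data.

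The members, gene lists and tests were chosen with earlier results of these data known. Every aquaporin model is named, and of other lists the 2 called members with the largest difference in each direction, with members a result turns on. The labels group the samples; same-numbered root and flower bud arrays did not deviate together (r = -0.07 to 0.02), so numbers were not used as pairs. Alternatives changed the scaling, background correction, filter, probe rule, samples, block and fold minimum. No slide or scan could serve as a block, since all arrays shared 1 of each. RefSeq coordinates were not used here, since the model names could not be matched to them.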

Additional observations from a re-analysis of the deposited data

Results flagged for a closer look

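Among the 22 aquaporin models, NIP6-1 had 1 root sample set apart from the other 3. Root replicate 2 was at -1.96, against -1.80, -1.79 and -1.79, and its gap made up 0.978 of the group's whole range. That range was only 0.16 on the log2 scale. The cut-off for this flag is one that chance passes in about 1 in 20 groups, and 1 of the 22 models screened passed it.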

How the results depend on the processing

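With few arrays, differences near 2-fold moved across the threshold with the setting. Of 15 called aquaporins, 12 kept direction and call under all 17 alternatives. Not all of these could move a call: dropping the fold minimum only loosens the rule. The deposited value table and the changes of filter left the aquaporin differences as they were. Under spike-in scaling 3958 models in all were called higher in root (6259 as reported), no NIP was higher in root and 2 NIPs were higher in flower bud; the cause was not tested. With arrays set to their medians 1 aquaporin and 0 NIPs were higher in flower bud. With normexp and quantiles these were 1 and 0, with 0 NIPs higher in root, and with normexp and the 75th percentile 0 NIPs were higher in root. Without a fold minimum 2 NIPs were higher in flower bud, and with only models well above background on all 8 arrays 4391 models in all were higher in flower bud (7325 as reported), since fewer were tested. Leaving out 1 sample gave 11 to 13 aquaporins higher in root and 1 to 2 higher in flower bud, and 0 to 1 NIP higher in each tissue.

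The sign changed only for members that were not called. PIP1-5 turned to 0.27 with median scaling and to 0.09, 0.04 and 0.10 without root replicate 1, root replicate 2 and sample A (-0.16 to 0.10 over all samples left out). TIP2-1 turned to 0.04 with median scaling and 0.08 without sample B. NIP6-1 turned to 0.26 with median scaling, 0.19 with normexp and quantiles, and 0.02 and 0.07 without root replicate 2 and sample A (-0.03 to 0.02 over root samples left out, and -0.10 to 0.07 over all samples left out). PIP2-7 and SIP1-1 turned to -0.22 and -0.26 under spike-in scaling. Treating all 8 arrays as samples, the count of called aquaporins was 13 for root and 2 for bud with the replicate block and without it. Over all models the block gave 6318 and 7425, against 6323 and 7428 without it. The deposited value table gave 13 and 2 aquaporins.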
